A study of Arabidopsis thaliana with 4 samples.

Results

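Transcript levels of 17 sugar transporter genes, 14 of the SWEET family and 3 of the TMT family, were compared between 35S:AtRALF1 and control seedlings of Arabidopsis thaliana. The genes were taken from the array platform's gene table, as every probe set with a single gene whose symbol begins with the name of a sugar or polyol transporter family (SWEET, STP, SUC, SUT, PMT, PLT, INT, TMT, ERDL, ESL or ERD6). Of the 22746 probe sets compared, 17 met this rule, 1 for each gene, out of 13513 that the table gives to a single gene. The table used here names probe sets for the SWEET and TMT families only, so no gene with another of these symbols, such as those of the sucrose-proton symporters (SUC, SUT) and the hexose symporters (STP), was analysed. A few transporters that the table lists under other names are given at the end. Each of the 17 probe sets has the plain suffix that the array design gives to probes of a single transcript.

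Whole seedlings, 1 week old and grown on vertical plates in long days, were used, with 2 Affymetrix arrays in each group. In 35S:AtRALF1 the peptide gene is driven by the cauliflower mosaic virus 35S promoter, which is active in nearly all cells, and RNA of a pair of overexpressing lines (35S:AtRALF1-1-I and 35S:AtRALF1-1-II) was mixed in equal amounts before labelling. The control was an equal mixture of RNA from wild-type plants and from plants with the empty pART27 vector. Differences between the lines, or between wild type and vector, therefore cannot be seen, and in whole seedlings fewer cells of a type and less RNA per cell cannot be told apart. Each group has repeat 1 and repeat 2. The labels do not state whether these are separate plantings, so the spread between them may be technical.

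SWEET proteins are small membrane uniporters that let sugars pass down their gradient. In plants they fall into clades: members of clades I and II move mainly hexoses, those of clade III mainly sucrose, and those of clade IV sit on the vacuolar membrane and move fructose and other sugars. TMT proteins, also called tonoplast sugar transporters, belong to another family, the sugar porters of the major facilitator superfamily. They load sugars into the vacuole in exchange for protons. In a seedling such carriers set how much sugar leaves source leaves, enters the phloem, is stored in vacuoles and is released from roots.

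The deposited signals are linear, 1 value for each probe set, and the authors had scaled the arrays to 1 level. To each signal 16 was added before log2 was taken, a step that shrinks the differences of dim genes, and the groups were then compared in limma. A log2 fold change here is always 35S:AtRALF1 minus control. Whether the level of AtRALF1 was raised on these arrays was not checked here. The green tissue markers LHCB4.1 and RCA, 2 of 5 on the list, had signals of 6883.3 to 10061.1, and the root markers PYK10, EXPA7 and EXPA18, 3 of 5, had 62.2 to 7079.2. The 1 matched locus of 5 on the seed and pollen list, AT1G29140, had 4.9 to 15.2. None of 4 phloem markers was matched to a probe set that the gene table gives to a single gene. PYK10 had 5714.6 and 4085 in 35S:AtRALF1, against 7079.2 and 6100.5 in control, while the root hair genes EXPA7 and EXPA18 had 111.3 and 130.7 against 62.2 and 107.1, and 156.8 and 190.8 against 135.7 and 99.6, so these root markers did not move in 1 direction. Their part in the results was not tested.

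A total of 7 members had a mean signal at or above the median probe set (47.6): SWEET1, SWEET2, SWEET11, SWEET16, SWEET17, TMT1 and TMT2. The other 10 lay below it, from SWEET14 with a mean of 14.1 to SWEET13 with 47.5. No detection calls were used, so for these 10 a signal cannot be told from background. SWEET11 and TMT1 had the highest mean signal of their families.

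**Figure D1:**
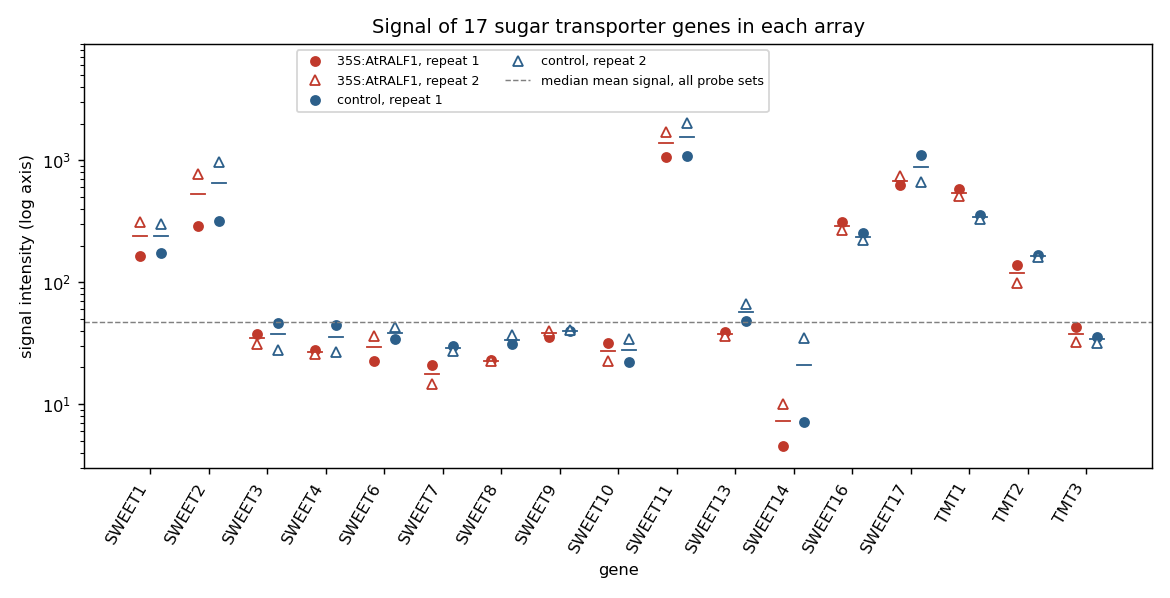
Signal intensity (log axis) of the 17 genes in each of the 4 arrays, with 35S:AtRALF1 in red on the left and control in blue on the right of each gene. Circles are repeat 1, triangles repeat 2, short lines the mean of 2 arrays, and the dashed line the median mean signal of all probe sets (47.6). TMT1 is higher in both 35S:AtRALF1 arrays than in both control arrays, whereas SWEET1, SWEET2 and SWEET11 separate by repeat and not by genotype.

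No member passed the test for a difference between the genotypes. At an adjusted p under 0.05 limma called 0 of the 17, and 0% of all probe sets. The adjusted p of the members lay between 0.987 and 1. At an unadjusted p under 0.05 TMT1 alone passed, 1 of 17, while 4.31% of all probe sets did. TMT1 no longer passed this unadjusted threshold without 35S:AtRALF1 replicate 1, control replicate 1 or control replicate 2, or among the 60% of probe sets that were brightest. No member was at least 2-fold higher in 35S:AtRALF1 than in control in both repeats (0.299% of all probe sets), and none was at least 2-fold lower in both (0.242%). At 1.5-fold, TMT1 was higher in both repeats, a property of 1.60% of all probe sets.

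With all 4 arrays in the fit, small differences to the lower side were frequent among the SWEET genes. Log2 fold changes were below 0 for 14 of the 17 members, 13 of them SWEET genes, and for 55.9% of all probe sets. After quantile normalization, which moved the median of all probe sets to -0.005 from -0.042, it was below 0 for 11 members and 10 SWEET genes (50.8% of all probe sets), because SWEET3, SWEET9 and SWEET10 changed sign. The median over the members was -0.23, against -0.042 over all probe sets. It was -0.05 without control replicate 2, and 9 of 17 members, 8 of them SWEET genes, were then below 0. Over all probe sets the median was then also -0.05, with 56.1% below 0. Without that array the members were thus near the array-wide share. Compared by repeat, 10 members were lower in 35S:AtRALF1 in both repeats, against 31.5% of all probe sets, and 3 were higher in both (SWEET16, TMT1 and TMT3), against 22.4%. Most of the 10 were dim genes: 7 of them lay below the median signal.

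Groups that do not overlap were less common. Both 35S:AtRALF1 arrays lay above both control arrays for SWEET16 and TMT1, 2 of 17, against 13.3% of all probe sets. Both lay below both control arrays for SWEET7, SWEET8, SWEET13 and TMT2, 4 of 17, against 18.1%. As a share of the 17 these are near the shares over the whole array.

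**Figure D2:**
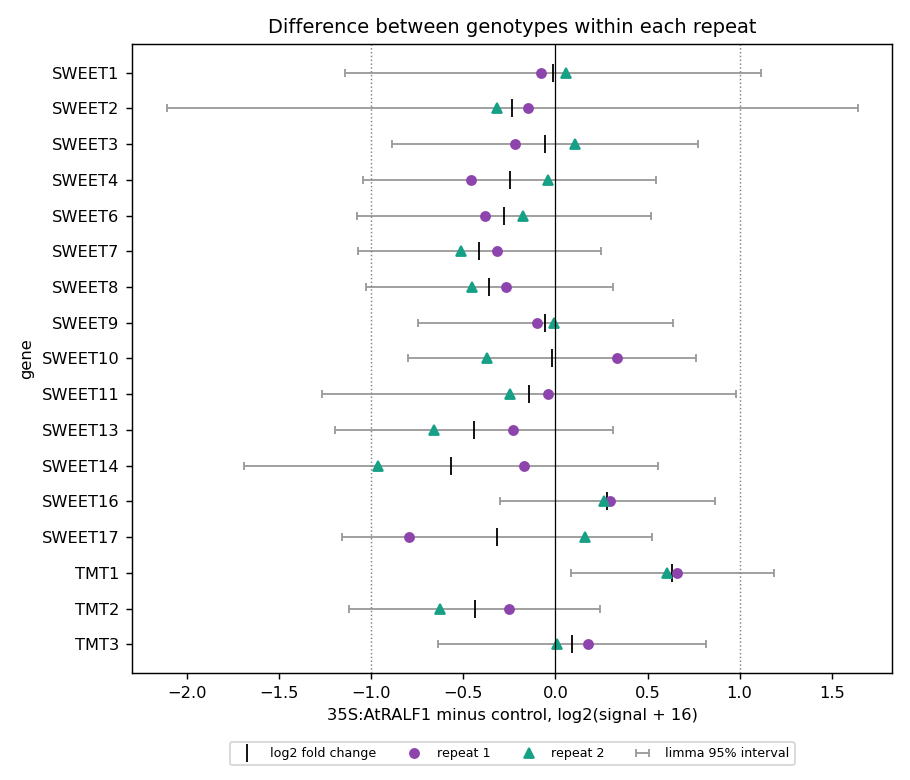
Difference between 35S:AtRALF1 and control on the log2(signal + 16) scale for each gene, within repeat 1 (circles) and within repeat 2 (triangles), with the log2 fold change (vertical tick) and its 95% interval from limma (grey bars). Dotted lines mark 2-fold. The interval of TMT1 (0.08 to 1.18) is the only one without 0, unadjusted for the number of probe sets, and the direction of SWEET3, SWEET9 and SWEET10 flips after quantile normalization.

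TMT1 and TMT2, which encode the main vacuolar sugar importers of leaves, had log2 fold changes of opposite sign, though neither passed the test. TMT1 (AT1G20840) had signals of 576.2 and 510.7 in 35S:AtRALF1, in the order repeat 1 and repeat 2, against 358.5 and 330.0 in control. Every 35S:AtRALF1 array was higher than every control array, and the ratio was 1.61 within repeat 1 and 1.55 within repeat 2. The means were 543.5 ± 46.3 in 35S:AtRALF1 and 344.2 ± 20.2 in control (SD, n = 2 each).

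The log2 fold change of TMT1 was 0.63 (SE 0.21), with a 95% interval of 0.08 to 1.18. It was 0.59 after quantile normalization and 0.55 to 0.72 when single arrays were left out. In limma its adjusted p was 0.987. The design is small: at 2 arrays in each group, 0.333 is the smallest p that an exact permutation test could give.

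TMT2 (AT4G35300) had signals of 138.5 and 98.5 in 35S:AtRALF1, against 168.2 and 160.5 in control. Both 35S:AtRALF1 arrays were lower, with a wider gap in repeat 2 (ratio 0.614) than in repeat 1 (ratio 0.823). Its log2 fold change was -0.44 (SE 0.26), with an interval of -1.12 to 0.24 that includes 0. Without 35S:AtRALF1 replicate 2 it was -0.22. The adjusted p from limma was 0.987.

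TMT3 (AT3G51490) was dim in all arrays, with 42.5 and 32.2 in 35S:AtRALF1 and 35.8 and 32.0 in control. The 2 groups overlapped, and its log2 fold change was 0.09 (interval -0.64 to 0.82), or -0.05 without 35S:AtRALF1 replicate 1.

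Because TMT1 and TMT2 were read on the same arrays, the scaling of an array nearly cancels in their difference within it. This quantity was chosen after the values had been seen. TMT1 minus TMT2 on the log2 scale was 1.94 and 2.20 in 35S:AtRALF1, against 1.02 and 0.97 in control. The means, 2.07 ± 0.19 in 35S:AtRALF1 and 1.00 ± 0.04 in control (SD, n = 2 each), were 1.07 apart. Since TMT1 was higher and TMT2 lower in both 35S:AtRALF1 arrays, these differences had to separate the groups, so they are a description of size and were not tested. The separation was 0.90 with an offset of 64 in place of 16, 1.14 with an offset of 1, and 0.94 to 1.2 with any 1 array left out.

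The clade IV genes SWEET16 and SWEET17, whose products carry fructose and other sugars across the vacuolar membrane, were both bright. SWEET16 (AT3G16690) had 314.7 and 268.6 in 35S:AtRALF1, against 253.1 and 220.9 in control. Both 35S:AtRALF1 arrays were higher, by a near equal ratio of 1.24 in repeat 1 and 1.22 in repeat 2. Its log2 fold change was 0.28 (SE 0.22), with an interval of -0.30 to 0.86, and 0.17 without 35S:AtRALF1 replicate 1.

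SWEET17 (AT4G15920), a fructose carrier known from leaves and roots, had 626.8 and 738.7 in 35S:AtRALF1, against 1100.1 and 660.0 in control. The groups overlapped, and control replicate 1 stood apart from the other 3 arrays. The 2 repeats went in opposite directions, with a ratio of 0.570 in repeat 1 and 1.12 in repeat 2. The log2 fold change was -0.32 (interval -1.16 to 0.52), and 0.04 without control replicate 1. SWEET16 and SWEET17 thus had log2 fold changes of different sign, but their difference within arrays moved by 1.09 in repeat 1 and only 0.11 in repeat 2.

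In clade I, SWEET1 (AT1G21460), a glucose uniporter of the plasma membrane, had 163.2 and 313.9 in 35S:AtRALF1, against 173.2 and 301.3 in control. SWEET2 (AT3G14770), a vacuolar sugar carrier known from root tips where it limits the loss of sugar to the soil, had 286.6 and 778.4 against 319.6 and 974.2. In both genes each genotype was low in repeat 1 and high in repeat 2, and the genotypes overlapped. Between genotypes the log2 fold change was -0.01 for SWEET1 and -0.23 for SWEET2, and both changed sign with single arrays left out. The fit without a term for the repeat gave SWEET2 an interval of -2.11 to 1.64, the widest of the 17. SWEET3 was dim, with 37.9 and 31.2 in 35S:AtRALF1 against 46.7 and 27.9 in control.

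The clade II genes SWEET4, SWEET6, SWEET7 and SWEET8 were all below the median signal. All 4 had a log2 fold change below 0, from -0.25 to -0.41, but 2 of them rest on single arrays. For SWEET4 the value was -0.002 when control replicate 1 was left out and -0.50 when control replicate 2 was. For SWEET6 it was -0.06 when 35S:AtRALF1 replicate 1 was left out, -0.49 when 35S:AtRALF1 replicate 2 was, and -0.17 when control replicate 2 was. SWEET7 (AT4G10850) had 20.8 and 14.5 in 35S:AtRALF1, against 29.8 and 27.5 in control. SWEET8 (AT5G40260), needed for the pollen wall in anthers, had 23.0 and 22.5 against 30.9 and 36.7. Neither gene's groups overlapped. SWEET4, a hexose carrier, had 27.9 and 25.6 against 44.3 and 26.8, where 1 control array was apart. SWEET6 had 22.5 and 35.9 against 34.1 and 42.7, and its groups overlapped. Both intervals included 0 (for SWEET7 -1.07 to 0.25).

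In clade III, SWEET11 (AT3G48740), which exports sucrose from phloem parenchyma cells for loading, was the brightest SWEET probe set. It had 1055.4 and 1707.4 in 35S:AtRALF1, against 1085.9 and 2028.6 in control. The groups overlapped, and repeat 2 was higher in both. The log2 fold change was -0.14 (SE 0.43, adjusted p = 0.997 from limma), with an interval of -1.26 to 0.98, and -0.59 to 0.30 with single arrays left out.

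SWEET13 (AT5G50800), a sucrose carrier that also moves gibberellins, had 38.9 and 36.2 in 35S:AtRALF1, against 48.4 and 66.3 in control. Both 35S:AtRALF1 arrays were lower, and the log2 fold change was -0.44 (interval -1.2 to 0.31), or -0.27 without control replicate 2. Its neighbour on the chromosome, SWEET10, had 32.0 and 22.5 against 22.0 and 33.9, with opposite directions in the 2 repeats and a log2 fold change of -0.02 (0.06 after quantile normalization). Of these adjacent genes, SWEET13 alone had groups without overlap.

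SWEET14 (AT4G25010), a sucrose and gibberellin carrier like SWEET13, had 4.5 and 10.1 in 35S:AtRALF1, against 7.1 and 34.8 in control. Its log2 fold change, -0.57, was the lowest of the 17 and rests on control replicate 2: without it the value was 0.00. SWEET9 (AT2G39060), the sucrose exporter of nectaries, had 35.8 and 40.1 against 39.6 and 40.4, and its log2 fold change of -0.06 was 0.03 after quantile normalization.

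The repeats separated some members more than the genotypes did. SWEET2 was at least 2-fold higher in repeat 2 than in repeat 1 in both genotypes, 1 of 17 members, against 0.686% of all probe sets. Its ratio of repeat 2 to repeat 1 was 2.72 in 35S:AtRALF1 and 3.05 in control. SWEET1 had ratios of 1.92 and 1.74, and SWEET11 1.62 and 1.87, in the same order of genotypes. Both arrays of repeat 2 lay above both of repeat 1 for 6 members (SWEET1, SWEET2, SWEET6, SWEET9, SWEET11 and SWEET14), against 19.0% of all probe sets. Both lay below for 3 (SWEET3, SWEET4 and TMT3), against 24.7%.

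In a limma fit with the genotype as a term, the log2 difference of repeat 2 minus repeat 1 was 1.48 (SE 0.19) for SWEET2, 0.81 (SE 0.20) for SWEET1 and 0.79 (SE 0.20) for SWEET11. After adjustment over the whole array none passed (adjusted p = 0.146, 0.251 and 0.254 from limma), and that fit called 0% of all probe sets. At an unadjusted p under 0.05 it gave 1212 probe sets higher and 1830 lower in repeat 2, out of 22746. Among those higher were SWEET1, SWEET2, SWEET11 and the dim SWEET14. TMT1 hardly differed between the repeats, by ratios of 0.886 in 35S:AtRALF1 and 0.921 in control. What differed between the repeats is not in the labels.

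**Figure D3:**
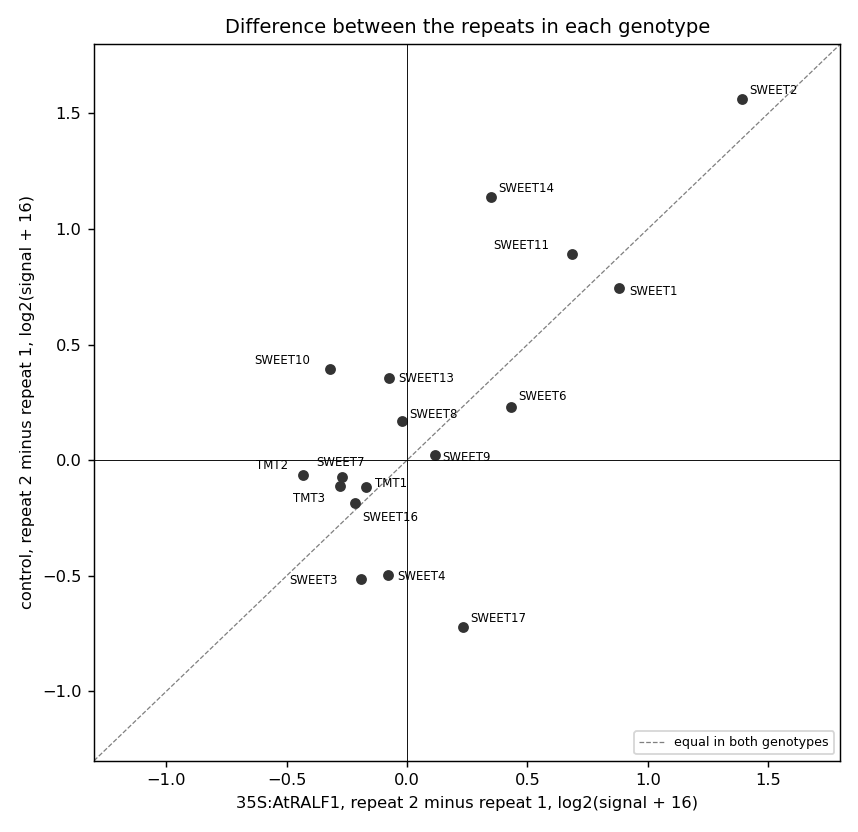
Repeat 2 minus repeat 1 on the log2(signal + 16) scale for each gene, in 35S:AtRALF1 (horizontal axis) and in control (vertical axis), with the dashed line where both are equal. SWEET1, SWEET2 and SWEET11 lie at the upper right, near the line, at 0.69 to 1.39 in 35S:AtRALF1 and 0.75 to 1.56 in control. SWEET10, SWEET14 and SWEET17 lie far from the line, and of these SWEET10 and SWEET14 are dim.

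With the repeat as a block in the comparison of genotypes, none of the 17 was called either. TMT1 kept the log2 fold change of 0.63 with an adjusted p of 0.668 from limma. For SWEET1, SWEET2 and SWEET11 the adjusted p from this limma fit lay between 0.790 and 0.995.

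A few relatives carry other names in the gene table and were looked at after the values of the members were known. SAG29, a senescence-associated gene whose other name is SWEET15 (AT5G13170), had 52.0 and 78.6 in 35S:AtRALF1, against 112.7 and 150.9 in control. Both 35S:AtRALF1 arrays were lower, with ratios of 0.461 and 0.521, and the log2 fold change was -0.87 (SE 0.31, adjusted p = 0.987 from limma). It was -1.11 to -0.63 with any 1 array left out. AtVEX1 (SWEET5), a gene of the pollen vegetative cell, had 9.6 and 9.5 against 7.7 and 3.0. With these, 16 of the 17 SWEET genes of the genome were matched to a probe set of a single gene, all but SWEET12. Whether the array carries SWEET12 was not checked.

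SFP1 and SFP2 encode further proteins of the sugar-porter superfamily. SFP2 (AT5G27360) had 66.2 and 38.5 in 35S:AtRALF1, against 106.6 and 80.6 in control, with both 35S:AtRALF1 arrays lower and a log2 fold change of -0.70 (SE 0.33, adjusted p = 0.987 from limma). Without 35S:AtRALF1 replicate 2 it was -0.41. SFP1 (AT5G27350) had 502.5 and 413.4 against 458.1 and 613.4, and its groups overlapped. Its log2 fold change was -0.21, and -0.42 to -0.007 with single arrays left out.

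Genes for sucrose synthesis, sucrose breakdown, sugar phosphorylation, further monosaccharide transporters and the response to sugar starvation were listed, 54 in all. Of these, 8 were matched to a probe set that the gene table gives to a single gene. Whether the array carries the others was not checked. Limma called 0 of the 8 matched genes. They comprised 2 of 8 genes listed as acid invertases, 3 of 8 for sucrose-phosphate synthase and phosphatase and 3 of 7 further transporters. Log2 fold changes were above 0 for 4 and below 0 for 4. ATSPS4F, a sucrose-phosphate synthase gene, had 119.0 and 113.8 in 35S:AtRALF1, against 143.5 and 232.4 in control, a log2 fold change of -0.59 (SE 0.30, adjusted p = 0.987 from limma), and -0.27 without control replicate 2. The 2 groups did not overlap. Locus AT2G35840 of the same list had 117.2 and 109.8 against 213.1 and 144.4, and the third locus, AT3G54270, was dim, with 14.6 to 22.0 over all arrays. The loci cwINV6 and AT1G62660, listed as acid invertases, had log2 fold changes of 0.16 and 0.24, each with overlapping groups. The enzyme activity of their products was not checked. With single arrays left out the log2 fold changes ranged over 0.04 to 0.28 for cwINV6 and 0.035 to 0.44 for AT1G62660. Among the further transporters, AT5G59250 had 282.1 and 407.2 against 251.4 and 261.6, a log2 fold change of 0.38 (SE 0.26), and 0.13 without 35S:AtRALF1 replicate 2 or 0.64 without 35S:AtRALF1 replicate 1. AT1G05030 had 103.0 and 106.3 against 80.2 and 96.3. AT5G17010 had 148.1 and 368.4 against 220.0 and 446.4, and like SWEET2 it was about 2-fold higher in repeat 2, by ratios of 2.49 in 35S:AtRALF1 and 2.03 in control.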

How the data were processed

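Total RNA of whole seedlings was labelled and hybridized to Affymetrix arrays. The authors deposited 1 linear intensity for each probe set and array, scaled so that its trimmed mean (2% off each end) equals 125 in all arrays. Summary software: not given in the sources used here. Of 22810 probe sets, 64 controls were left out. Values below a floor of 1 were raised to it, and log2 was taken after adding an offset of 16. Groups were fitted with limma 3.58.1 in R 4.3.3 (intensity trend, two-sided, Benjamini-Hochberg over 22746 probe sets, threshold 0.05). The number of arrays limits the precision. Genes were named from the platform's table, with loci from RefSeq (TAIR10.1) for all 17. Values in every array were to be given for the brightest member of each family, for non-overlapping bright members with a log2 fold change of at least 0.5 in size and for those changed 2-fold in both repeats, which gave SWEET11 and TMT1. The statistics of other genes were added after the values had been seen. The members and lists were chosen with earlier results of these data known. Alternatives were quantile normalization, offsets of 1 and 64, a filter that kept the brightest 60% of probe sets, a fit without the variance trend, a replicate block, each array left out and 1.5-fold in place of 2-fold. A mean over a gene's probe sets changes nothing, as each member has 1. The TMT1 to TMT2 difference and the 2-fold count between repeats were added after the data had been seen. Markers were LHCB4.1, RCA, PYK10, EXPA7, EXPA18 and AT1G29140, the genes of 4 lists that were matched to a probe set of a single gene.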

Additional observations from a re-analysis of the deposited data

How the results depend on the processing

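The number of called members was 0 under every alternative run. For all probe sets it was 1 among the brightest 60% (which hold 12 of the members) and 1 with the replicate block, and 0 otherwise. Deviations from the group means of same-numbered arrays correlated across probe sets (0.392), but 2 pairs do not settle whether the numbers pair the samples. At an unadjusted p under 0.05 the block gave 734 probe sets higher and 914 lower, against 458 and 522 without it. The members' median log2 fold change was -0.24 with an offset of 1, -0.14 with 64, -0.15 with quantile normalization, -0.10 among the 60% (12 genes), and -0.38 to -0.045 with 1 array left out. The 2-fold count over both repeats, 0, was 1 at 1.5-fold. Members whose groups do not overlap, 6 of 17 (31.4% of all probe sets), numbered 8 to 14 with 1 array left out, against 60.4% to 71% of all probe sets. Leaving out 35S:AtRALF1 replicate 1 gave the 8 (71%), 35S:AtRALF1 replicate 2 gave 14 (67.4%), control replicate 1 also 14 (60.4%), and control replicate 2 gave 10 (62.8%). With an offset of 1, SWEET14 joined SWEET2 as 2-fold higher in repeat 2 in both genotypes (2 members).

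Of 254 log2 fold changes of 29 genes under the alternatives, 22 changed sign, in 11 genes. The cause was not tested. With quantile normalization SWEET3 had 0.033, SWEET9 0.028, SWEET10 0.057 and AT3G54270 0.051. With 1 array left out the range was -0.45 to 0.43 for SWEET1, -1.01 to 0.55 for SWEET2, -0.31 to 0.20 for SWEET3, -0.11 to 0.003 for SWEET9, -0.22 to 0.18 for SWEET10, -0.59 to 0.30 for SWEET11, -1.14 to 0.002 for SWEET14, -0.68 to 0.043 for SWEET17, -0.049 to 0.23 for TMT3, -0.18 to 0.12 for AT3G54270 and -1.01 to 0.22 for AT5G17010. In these fits the spread of a lone array is taken from the other group, and the repeats are no longer balanced.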
